A study of Mus musculus with 180 samples.

Results

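Levels of 10 stem cell transcription factor genes, Hlf, Mecom, Gata2, Tal1, Lyl1, Erg, Fli1, Lmo2, Etv6 and Nfix, were read in single haematopoietic cells of 4 populations. The genes were chosen by name, with earlier results of these data known. All 10 were listed among the 14825 genes of the deposited table, and all 10 were among the 10856 genes that passed the filter, which asked for detection in 10% or more of the cells of any population. TPM is a level per transcript length that is scaled to the same sum in every cell, so that levels of different genes can be set side by side, and a gene is called detected in a cell where its TPM is 1 or above.

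The study induced Hoxb5 in multipotent progenitors (MPP) and examined a donor-derived Sca1+c-kit+ population with surface CD11b and CD48 that was found in the recipients. The 180 cells used here were 47 CD11b+CD48+SK cells, 41 WT-MPP, 36 BM HSC and 56 FL HSC, all on the C57BL/6 background. WT-MPP and BM HSC were from bone marrow of Rosa LSL-Hoxb5-EGFP/+ mice aged 8 weeks, and FL HSC were from fetal liver of the same genotype at Day14.5. Without Cre, the Hoxb5-EGFP cassette of these animals remains behind its stop signal. CD11b+CD48+SK cells were descendants of Mx1cre/Rosa LSL-Hoxb5-EGFP/+ MPP, in which pIpC induces Cre from the Mx1 promoter. They were taken at Week 8 from lethally irradiated primary recipients. In the paper they are gated as CD45.2+GFP+ lineage-negative cells with Sca1, c-kit, CD48 and CD11b, where GFP reports the ectopic Hoxb5. WT-MPP were lineage-negative Sca1+c-kit+ cells with CD135 but without CD150 and CD48, and FL HSC were lineage-negative cells positive for CD150, CD11b, c-kit, Sca1 and CD45.2. The gate of BM HSC is not given in the sources used here. The labels name bone marrow as the source of every cell, although they also call the FL HSC fetal liver cells. Transplanted MPP without Cre are not among the 4 populations, and no other gate given here asks for CD48. Hoxb5, transplantation, the irradiated host, pIpC and the sort gate therefore cannot be told apart in any difference of the CD11b+CD48+SK cells.

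No animal is named for any cell. Each population therefore counted as 1 sample, no test was made between populations, and the SD and the 95% exact Clopper-Pearson intervals given below cover the spread and the counting of cells only. Read counts cannot be had from TPM, so depth per cell is unknown, and the number of detected genes stands in its place. Its median was 5206.5 in FL HSC, 4514 in CD11b+CD48+SK cells, 4441.5 in BM HSC and 3844 in WT-MPP. The sort markers followed the gates in part. Cd48 was detected in 100% of CD11b+CD48+SK cells and Slamf1, which encodes CD150, in 63.9% of BM HSC and 55.4% of FL HSC but 7.32% of WT-MPP. Itgam, which encodes CD11b, was detected in 36.2% of CD11b+CD48+SK cells and 16.1% of FL HSC.

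The 10 factors include the core of the regulatory network of blood stem cells. Tal1 and Lyl1 are basic helix-loop-helix proteins that bind E-boxes, Gata2 binds GATA motifs, and Lmo2 does not bind DNA itself but bridges the bHLH and GATA proteins in 1 complex. Erg, Fli1 and Etv6 belong to the ETS family, and Erg, Fli1, Gata2, Lmo2, Lyl1, Tal1 and Runx1 are known together as the heptad. Hlf and Mecom mark the most immature cells of the hierarchy and are lost early in differentiation, while Nfix is a nuclear factor I protein that supports the survival of stem and progenitor cells.

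The 250 bases before the RNA start are shown for 4 genes, from RefSeq with coordinates of GRCm38.p6, as examples of a factor that was low in CD11b+CD48+SK cells (Hlf, Gata2) and of a factor that was not (Lyl1, Etv6). Hlf, Lyl1 and Etv6 have 1 annotated start each, and Gata2 is shown at the upstream of its 2 starts. All are written 5′ to 3′ on the strand of the gene, and capitals mark matches, on either strand, to the E-box CANNTG, the GATA motif GATAA and the ETS motifs AGGAAG and CGGAAG. The windows hold no annotated exon base. They are chr11:90390918-90391167 on the minus strand for Hlf, chr6:88193641-88193890 on the plus strand for Gata2, chr8:84701207-84701456 on the plus strand for Lyl1 and chr6:134035450-134035699 on the plus strand for Etv6.
Hlf: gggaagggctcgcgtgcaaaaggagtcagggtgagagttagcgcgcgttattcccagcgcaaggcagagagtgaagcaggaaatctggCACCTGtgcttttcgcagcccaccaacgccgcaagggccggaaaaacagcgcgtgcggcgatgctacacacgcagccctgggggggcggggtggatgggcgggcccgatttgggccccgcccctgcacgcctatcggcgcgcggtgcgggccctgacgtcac
Gata2: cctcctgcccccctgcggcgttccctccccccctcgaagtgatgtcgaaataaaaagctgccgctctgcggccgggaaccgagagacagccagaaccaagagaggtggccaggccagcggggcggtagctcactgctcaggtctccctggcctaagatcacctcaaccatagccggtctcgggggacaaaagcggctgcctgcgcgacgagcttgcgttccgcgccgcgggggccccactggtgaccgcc
Lyl1: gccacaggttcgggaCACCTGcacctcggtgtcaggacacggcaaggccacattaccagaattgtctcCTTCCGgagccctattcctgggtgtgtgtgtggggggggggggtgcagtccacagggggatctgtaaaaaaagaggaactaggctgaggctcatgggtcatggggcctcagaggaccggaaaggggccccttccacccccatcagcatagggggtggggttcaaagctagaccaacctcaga
Etv6: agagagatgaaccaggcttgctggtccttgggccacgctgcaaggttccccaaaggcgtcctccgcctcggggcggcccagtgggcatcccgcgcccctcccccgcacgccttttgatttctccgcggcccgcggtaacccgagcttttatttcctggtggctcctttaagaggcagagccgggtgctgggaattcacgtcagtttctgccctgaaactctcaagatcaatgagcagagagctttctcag

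Hlf held 1 E-box, which began 162 bases before the start, and Lyl1 held 1 E-box and 1 ETS match, which do not overlap. The windows of Gata2 and Etv6 held none of these letters. Of all 32851 promoter windows of the same length, 66.2% held an E-box, 22.6% GATAA and 39.2% an ETS match. RefSeq entries were matched for 8 of the 10 genes with 16 windows in all, and 6 of the 16 held an E-box, 5 GATAA and 7 an ETS match. A match is a description of letters and not of a bound site. Fli1 and Lmo2 had no entry.

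Hlf and Mecom had lower means in CD11b+CD48+SK cells than in every other population, with overlap between cells. Both were detected in the fewest CD11b+CD48+SK cells. No CD11b+CD48+SK cell had both, where few had either gene, and about the same share of BM HSC and FL HSC had both. Hlf encodes a PAR bZIP factor and lies on the minus strand of chromosome 11 (mm10, 90336536 to 90390895). Its level in CD11b+CD48+SK cells ran from 0 to 58.4 TPM with a median of 0, and 36 of 47 cells were at 0. In WT-MPP it ran from 0.287 to 368 TPM with a median of 104. BM HSC had 0.153 to 259 TPM with a median of 42.6, and FL HSC 0 to 147 TPM with a median of 20.1. The highest CD11b+CD48+SK cell was thus below the median WT-MPP cell, although the ranges overlapped. Hlf was detected in 17% of CD11b+CD48+SK cells, with a 95% exact interval of 7.65 to 30.8%, against 90.2% of WT-MPP (76.9 to 97.3%), 87.5% of FL HSC (75.9 to 94.8%) and 77.8% of BM HSC (60.8 to 89.9%). Its mean log2(TPM+1) was 0.72 in CD11b+CD48+SK cells (SD 1.58, n = 47 cells), 5.67 in WT-MPP (SD 2.38, n = 41), 4.36 in BM HSC (SD 2.74, n = 36) and 3.95 in FL HSC (SD 1.95, n = 56). WT-MPP, BM HSC and FL HSC followed each other by less than the SD between cells, and the step from FL HSC to CD11b+CD48+SK cells exceeded it. The difference of -4.95 from WT-MPP was the 8th lowest of the 10856 genes.

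Mecom encodes a zinc finger protein of the PRDM family, also called EVI1, that is needed to maintain long-term HSC. It lies on the minus strand of chromosome 3 (mm10, 29951296 to 30548008), and its 2 annotated RNA starts are 496555 bases apart, which the table's single value per gene does not separate. Only 3 CD11b+CD48+SK cells reached a TPM of 1, at 2.0, 9.09 and 14.51 TPM, and 44 were at 0. WT-MPP ran from 0 to 128 TPM with a median of 0, BM HSC from 0 to 386 TPM with a median of 23.4 and FL HSC from 0 to 288 TPM with a median of 9.34. The populations all shared cells at 0 but differed in how many cells were above it. The share of cells with Mecom was 6.38% in CD11b+CD48+SK cells (1.34 to 17.5%), 34.1% in WT-MPP (20.1 to 50.6%), 66.7% in BM HSC (49 to 81.4%) and 58.9% in FL HSC (45 to 71.9%). Means of log2(TPM+1) were 0.19 (SD 0.77), 1.71 (SD 2.65), 4.0 (SD 3.10) and 2.94 (SD 2.64) in the same order. Each step of this order was smaller than the SD between cells of the higher population. Among cells with Mecom the level differed too, with a median of 80.4 TPM in BM HSC, 69.2 TPM in WT-MPP, 33.6 TPM in FL HSC and 9.09 TPM in the 3 CD11b+CD48+SK cells.

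Hlf and Mecom differed from each other in WT-MPP. Hlf was higher in WT-MPP than in BM HSC by 1.31 on the log2 scale, whereas Mecom was higher in BM HSC than in WT-MPP by 2.29, the 106th highest of all filtered genes. Of the 37 WT-MPP with Hlf, 13 also had Mecom, and 1 had Mecom without Hlf. Hlf and Mecom were detected together in 55.6% of BM HSC (38.1 to 72.1%), 51.8% of FL HSC (38 to 65.3%) and 31.7% of WT-MPP (18.1 to 48.1%). In the CD11b+CD48+SK cells 0 of 47 had both (0 to 7.55%). With Hlf in 8 and Mecom in 3 of these cells, hardly any with both would be found even if the genes were unrelated. Either gene was detected in 11 CD11b+CD48+SK cells, 23.4% (12.3 to 38%), against 94.6% of FL HSC, 92.7% of WT-MPP and 88.9% of BM HSC. All 8 CD11b+CD48+SK cells with Hlf had Gata2, at 1.77 to 257 TPM, and 0 of the 8 had Tal1. Of the 3 with Mecom, 1 had Gata2, at 5.55 TPM.

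**Figure D1:**
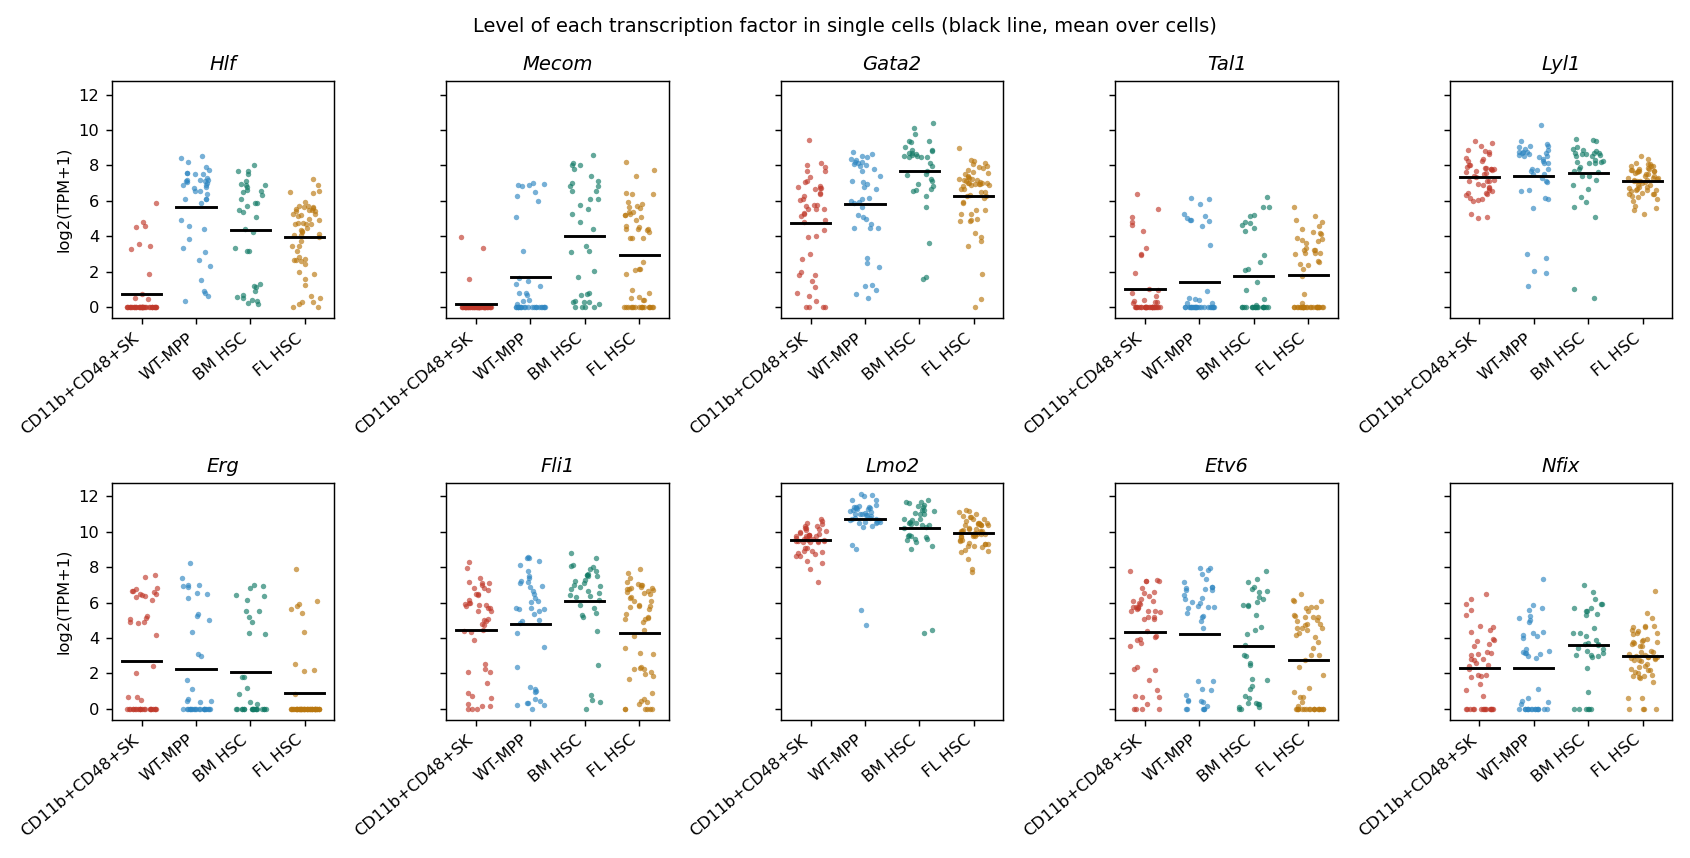
Level of the 10 transcription factors in every cell, with log2(TPM+1) on the vertical axis and the 4 populations on the horizontal axis. Each point is 1 cell, shifted sideways at random, and the black line is the mean over cells, which for Hlf lies at 0.72 in CD11b+CD48+SK cells and 5.67 in WT-MPP. Lmo2 and Lyl1 are high in nearly all cells of every population, while Mecom, Tal1 and Erg range in each population from cells at 0 to cells far above it.

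Gata2, which is required for HSC to form and survive, was detected in most cells of every population but at different levels. It lies on chromosome 6 (mm10, 88193891 to 88207032, plus strand). CD11b+CD48+SK cells ran from 0 to 695 TPM with a median of 45.7, where the next highest cell had 279 TPM. WT-MPP ran from 0.437 to 430.0 TPM with a median of 70.1, BM HSC from 1.98 to 1336 TPM with a median of 351 and FL HSC from 0 to 497 TPM with a median of 120.0. BM HSC stood highest and CD11b+CD48+SK cells lowest, with wide overlap. The share of cells with Gata2 was 85.1% (71.7 to 93.8%) in CD11b+CD48+SK cells, 92.7% (80.1 to 98.5%) in WT-MPP, 100% (90.3 to 100%) in BM HSC and 96.4% (87.7 to 99.6%) in FL HSC, so the populations differed more in level than in detection. Mean log2(TPM+1) was 4.75 (SD 2.66), 5.82 (SD 2.51), 7.68 (SD 2.0) and 6.29 (SD 1.80). CD11b+CD48+SK cells were lower by 1.07 than WT-MPP, by 2.94 than BM HSC and by 1.54 than FL HSC, and only the difference from BM HSC exceeded the SD between CD11b+CD48+SK cells.

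Lmo2, the bridging protein of the complex, was the highest of the 10 genes in every population. It lies on chromosome 2 (mm10, 103957986 to 103981878, plus strand). CD11b+CD48+SK cells ran from 143 to 1674 TPM with a median of 772. WT-MPP ran from 25.6 to 4555 TPM with a median of 2003, BM HSC from 18.3 to 3559.8 TPM with a median of 1441 and FL HSC from 211 to 2435 TPM with a median of 1009. Every cell of every population had Lmo2, and the highest CD11b+CD48+SK cell was below the median of WT-MPP. Mean log2(TPM+1) was 9.50 (SD 0.72) in CD11b+CD48+SK cells, 10.70 (SD 1.42) in WT-MPP, 10.20 (SD 1.63) in BM HSC and 9.92 (SD 0.75) in FL HSC. The difference of -1.19 from WT-MPP exceeded the SD between CD11b+CD48+SK cells but not that between WT-MPP. A pair of WT-MPP at 25.6 and 46.8 TPM and a pair of BM HSC at 18.3 and 21.02 TPM stood apart from the other cells of their populations. Those WT-MPP were also among the 3 WT-MPP with the lowest Lyl1, at 3.06 and 1.25 TPM, but those BM HSC had 318 and 527 TPM of Lyl1. All 4 had under 4000 genes detected, and with only cells of 4000 to 5000 genes the difference of CD11b+CD48+SK cells from WT-MPP was -1.26.

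Lyl1 and Tal1, the bHLH partners of Lmo2, differed widely in level. Lyl1 lies on chromosome 8 (mm10, 84701457 to 84704715, plus strand), inside the span of Nfix on the other strand, with which it shares 4 exon bases. Its median was 179 TPM in CD11b+CD48+SK cells (31.3 to 665 TPM), 284 TPM in WT-MPP (1.25 to 1234 TPM), 288 TPM in BM HSC (0.412 to 716 TPM) and 143 TPM in FL HSC (37.9 to 365 TPM). It was detected in all but 1 BM HSC. Means of log2(TPM+1) lay between 7.11 in FL HSC and 7.59 in BM HSC, closer together than those of any other of the 10 genes, and the SD between cells was 0.75 in FL HSC and 2.20 in WT-MPP. The difference of CD11b+CD48+SK cells from WT-MPP was -0.01.

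Tal1, on chromosome 4 (mm10, 115056426 to 115071755, plus strand), was detected in fewer cells than Lyl1 in every population. Its highest cell had 83.6 TPM among CD11b+CD48+SK cells, 73.7 TPM among BM HSC, 71.4 TPM among WT-MPP and 49.7 TPM among FL HSC, and the lowest value was 0 throughout. The median was 0 in CD11b+CD48+SK cells and WT-MPP, 0.0467 TPM for BM HSC and 1.54 TPM for FL HSC. With the populations in this order, the shares of cells with Tal1 were 23.4% (12.3 to 38%), 26.8% (14.2 to 42.9%), 41.7% (25.5 to 59.2%) and 50% (36.3 to 63.7%). All neighbouring intervals overlapped. Every cell with Tal1 also had Lyl1, and Lyl1 without Tal1 was found in 76.6% of CD11b+CD48+SK cells (62.0 to 87.7%), 50% of FL HSC (36.3 to 63.7%), 73.2% of WT-MPP (57.1 to 85.8%) and 55.6% of BM HSC (38.1 to 72.1%). None of the 6 differences in Tal1 reached 1 on the log2 scale, and the largest was -0.80, for CD11b+CD48+SK cells against FL HSC.

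The ETS genes did not follow the pattern of Hlf and Mecom. Erg and Etv6 were higher in CD11b+CD48+SK cells than in FL HSC, and Fli1 was highest in BM HSC. Erg, which maintains adult HSC, lies on the minus strand of chromosome 16 (mm10, 95359169 to 95586593). It ran from 0 to 184 TPM in CD11b+CD48+SK cells with a median of 0.559, to 294 TPM in WT-MPP with a median of 0.292 and to 126 TPM in BM HSC with a median of 0.109. In FL HSC the median was 0 and the highest cell 239.7 TPM, followed by 66.3 TPM. The share of cells with Erg was 46.8% (32.1 to 61.9%), 41.5% (26.3 to 57.9%) and 41.7% (25.5 to 59.2%) in the first 3 populations and 17.9% (8.91 to 30.4%) in FL HSC. The interval of FL HSC did not meet that of the CD11b+CD48+SK cells, but how often this occurs among all filtered genes was not counted. Mean log2(TPM+1) was 2.71 (SD 3.0), 2.27 (SD 2.96), 2.1 (SD 2.73) and 0.87 (SD 2.01), so that even the difference of 1.84 from FL HSC to the CD11b+CD48+SK cells was below the SD between cells.

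Etv6, a repressor of the ETS family needed for HSC to persist in bone marrow, lies on chromosome 6 (mm10, 134035700 to 134270158, plus strand). Its median was 35.5 TPM in CD11b+CD48+SK cells (0 to 215 TPM), 50.4 TPM in WT-MPP (0 to 251 TPM), 9.21 TPM in BM HSC (0 to 220.3 TPM) and 7.29 TPM in FL HSC (0 to 88.8 TPM). It was detected in 83.0% (69.2 to 92.4%), 73.2% (57.1 to 85.8%), 72.2% (54.8 to 85.8%) and 58.9% (45 to 71.9%) of cells. CD11b+CD48+SK cells and WT-MPP had nearly the same mean log2(TPM+1), 4.34 (SD 2.38) and 4.24 (SD 2.96), above 3.53 (SD 2.71) in BM HSC and 2.73 (SD 2.41) in FL HSC. The difference of CD11b+CD48+SK cells from FL HSC was 1.61 and that of FL HSC from WT-MPP -1.51, each smaller than the SD between cells.

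Fli1, the closest relative of Erg and a member of the heptad, lies on the minus strand of chromosome 9 (mm10, 32422204 to 32542861). Its median was 44.7 TPM in CD11b+CD48+SK cells (0 to 312 TPM), 49.1 TPM in WT-MPP (0 to 379 TPM), 113 TPM in BM HSC (0 to 447 TPM) and 35.1 TPM in FL HSC (0 to 233 TPM). BM HSC stood above the other 3, which lay close to each other. The shares of cells with Fli1 were 80.9% (66.7 to 90.9%), 78.0% (62.4 to 89.4%), 88.9% (73.9 to 96.9%) and 80.4% (67.6 to 89.8%). Mean log2(TPM+1) was 4.48 (SD 2.54), 4.79 (SD 2.90), 6.07 (SD 2.37) and 4.29 (SD 2.61), and the difference of CD11b+CD48+SK cells from BM HSC, -1.59, was smaller than the SD between cells. Neither Erg nor Fli1 was detected in 7 CD11b+CD48+SK cells (14.9%), 6 WT-MPP (14.6%), 3 BM HSC (8.33%) and 9 FL HSC (16.1%).

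Nfix lies on the minus strand of chromosome 8 (mm10, 84699876 to 84800344). CD11b+CD48+SK cells ran from 0 to 88.4 TPM with a median of 4.40, WT-MPP from 0 to 162 TPM with a median of 6.30, BM HSC from 0 to 128 TPM with a median of 11.7 and FL HSC from 0 to 101 TPM with a median of 6.73. It was detected in 66.0% (50.7 to 79.1%), 53.7% (37.4 to 69.3%), 80.6% (64.0 to 91.8%) and 89.3% (78.1 to 96.0%) of cells. FL HSC thus had the largest share of cells with Nfix at a TPM of 1, but with a limit of 10 TPM the order turned, to 37.5% of FL HSC against 55.6% of BM HSC. The mean log2(TPM+1) was highest in BM HSC at 3.58 (SD 2.07), against 2.96 (SD 1.41) in FL HSC, 2.29 (SD 2.0) in CD11b+CD48+SK cells and 2.28 (SD 2.29) in WT-MPP. Nfix without Mecom was found in 61.7% of CD11b+CD48+SK cells (46.4 to 75.5%) and in 25% of BM HSC (12.1 to 42.2%) to 35.7% of FL HSC (23.4 to 49.6%) in the other populations.

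**Figure D2:**
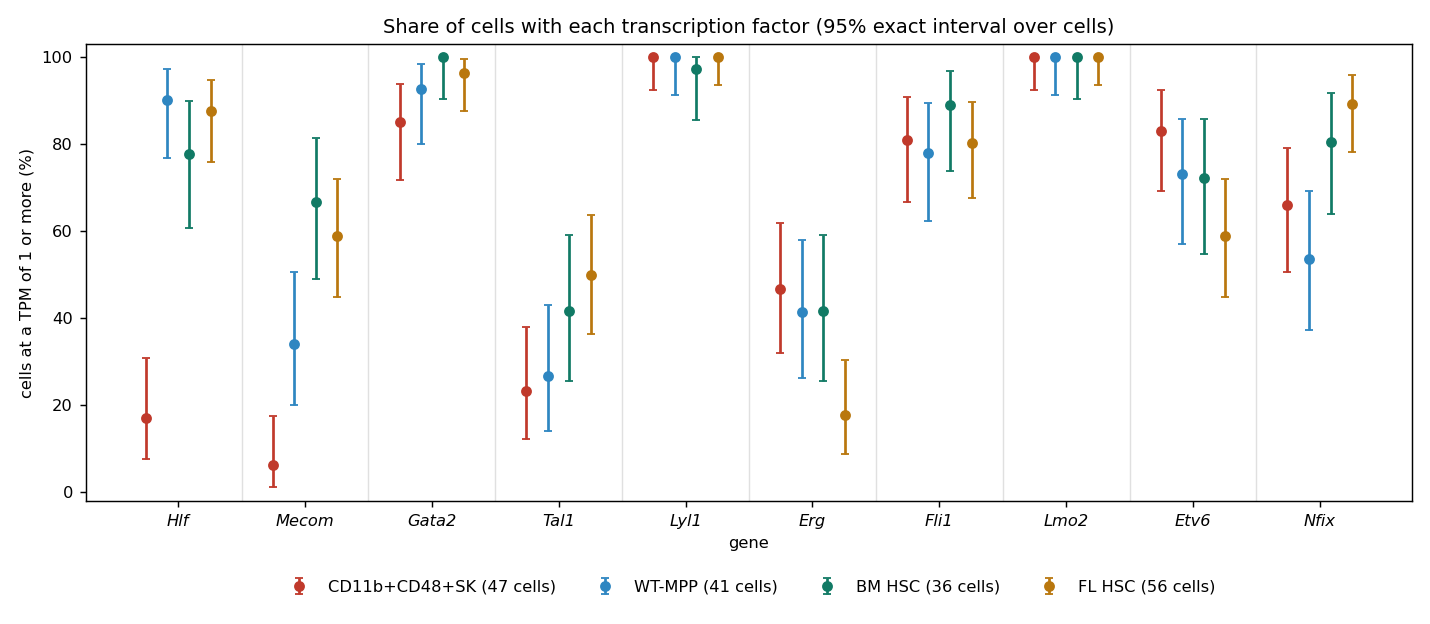
Share of cells in which each gene was detected, in percent, with the 95% exact Clopper-Pearson interval over cells as the bar and 1 colour for each population. For Hlf, the interval of the CD11b+CD48+SK cells (7.65 to 30.8%) lies below those of the other 3 populations, and for Mecom (1.34 to 17.5%) likewise, while for Lyl1 and Lmo2 all shares are at 97.2% or more. How often the intervals of all filtered genes lie apart in this way was not counted.

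Across the 10 genes, a difference of 1 or more in mean log2(TPM+1) was counted in each of the 6 comparisons and set beside the share of all filtered genes past the same limit. Against WT-MPP, 4 of the 10 were lower in CD11b+CD48+SK cells, namely Hlf (-4.95), Mecom (-1.53), Lmo2 (-1.19) and Gata2 (-1.07), where 5.01% of all filtered genes were lower, and 0 were higher, where 19% of all genes were. The median of the 10 genes was -0.38 and that of all filtered genes 0.21. Against BM HSC, 5 were lower, Mecom (-3.81), Hlf (-3.65), Gata2 (-2.94), Fli1 (-1.59) and Nfix (-1.29), beside 11.8% of all genes, and 0 were higher, beside 13.4%. Here the median was -1.03, and that of all genes -0.001. Against FL HSC, 3 were lower, Hlf (-3.24), Mecom (-2.75) and Gata2 (-1.54), beside 20.9% of all genes. Erg (1.84) and Etv6 (1.61) were higher, 2 of 10 beside 4.02%, with a median of -0.54 and -0.32 over all genes. Hlf, Mecom and Gata2 were the genes lower in CD11b+CD48+SK cells in all 3 of these comparisons, which share the CD11b+CD48+SK cells, beside 2.38% of all filtered genes. Hlf stayed past 1 in all 3 under every alternative that recomputes a difference. Gata2 did not, at -0.74 from WT-MPP and -0.99 from FL HSC with a pseudocount of 10, and at -0.77 and -0.60 with the log2 of the mean TPM plus 1. Mecom fell short only against WT-MPP, at -0.73 with a pseudocount of 10. That pseudocount also brought Nfix to -0.62 against BM HSC, and Erg and Etv6 to 0.90 and 0.87 against FL HSC. The shares of all genes depend on how cells are averaged. With the log2 of the mean TPM plus 1, 24.1% of all filtered genes were lower and 10.3% higher against WT-MPP, 27.7% and 9.78% against BM HSC, and 19.5% and 8.23% against FL HSC, beside 3, 6 and 2 of the 10 factors lower and 0, 0 and 2 higher. In cells with 4000 to 5000 genes detected, the shares were 15.1% lower and 11.8% higher against WT-MPP, 17.1% and 13.7% against BM HSC, and 18.5% and 8.82% against FL HSC, beside 4, 4 and 3 factors lower and 0, 1 and 2 higher.

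The adult and fetal populations were compared in the same way. BM HSC were higher than WT-MPP in 4 of the 10, Mecom (2.29), Gata2 (1.86), Nfix (1.3) and Fli1 (1.28), beside 14.49% of all filtered genes, and lower in 1, Hlf (-1.31), beside 2.67%. FL HSC were lower than BM HSC in 4, Fli1 (-1.78), Gata2 (-1.39), Erg (-1.23) and Mecom (-1.06), beside 5.44% of all genes, and higher in 0, beside 25.6%. The median of the 10 was -0.71 while that of all filtered genes was 0.31. FL HSC were lower than WT-MPP in 3, Hlf (-1.72), Etv6 (-1.51) and Erg (-1.40), beside 3.08%, and higher in 1, Mecom (1.22), beside 33.9%, with a median of -0.39 against 0.56 over all genes. The shift of all genes was largest in this last comparison, and Mecom ranked 3037 from the highest there. With the log2 of the mean TPM plus 1 the shares of all genes turned round in FL HSC minus BM HSC, to 19.3% lower and 11.8% higher with a median of -0.13, beside 7 factors lower. The same setting gave 17.8% lower and 14.8% higher in FL HSC minus WT-MPP and 11.7% lower and 15.6% higher in BM HSC minus WT-MPP. In cells with 4000 to 5000 genes detected, 12.8% were lower and 19.2% higher, 12.5% lower and 19.6% higher, and 13.5% lower and 13.4% higher in these 3 comparisons. Under some alternative, Hlf, Nfix and Fli1 fell below 1 in BM HSC minus WT-MPP, Mecom and Erg in FL HSC minus BM HSC and also in FL HSC minus WT-MPP. BM HSC had the highest mean log2(TPM+1) of Mecom, Gata2, Lyl1, Fli1 and Nfix among the 4 populations. WT-MPP had the highest of Hlf and Lmo2, FL HSC that of Tal1, and CD11b+CD48+SK cells those of Erg and Etv6. Some of these leads were small and changed sign under an alternative. Over WT-MPP, CD11b+CD48+SK cells led by 0.10 in Etv6 (-0.79 to 0.34 over the alternatives) and 0.43 in Erg (-0.89 to 0.59). FL HSC led BM HSC by 0.04 in Tal1 (-0.55 to 0.22), and BM HSC led WT-MPP by 0.21 in Lyl1 (-0.29 to 0.23).

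**Figure D3:**
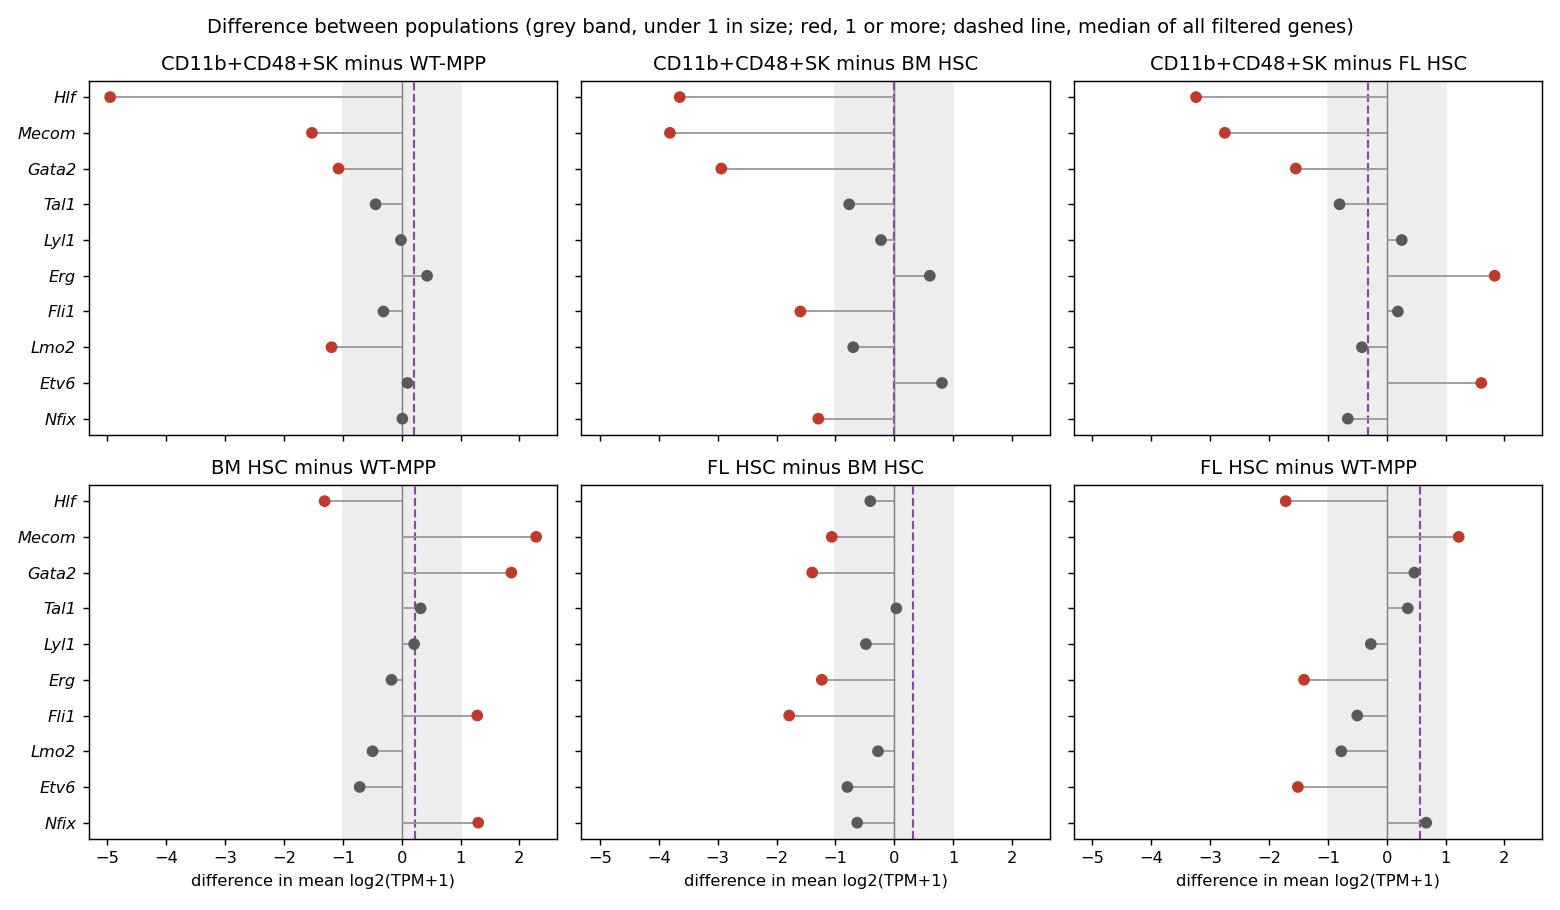
Difference in mean log2(TPM+1) of the 10 genes in the 6 comparisons, each named above its panel as the first population minus the second. Red points are differences of 1 or more in size, the grey band covers those under 1, and the dashed line is the median of all filtered genes. Hlf lies at -4.95, -3.65 and -3.24 in the upper panels, where the CD11b+CD48+SK cells were compared with the other populations.

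The number of the 10 factors found in the same cell was counted next. A median of 6 factors (range 3 to 8) was detected in a CD11b+CD48+SK cell, 7 (4 to 9) in WT-MPP, 8 (4 to 10) in BM HSC and 8 (4 to 10) in FL HSC. Cells with 8 or more made up 66.7% of BM HSC (49 to 81.4%), 51.8% of FL HSC (38 to 65.3%), 41.5% of WT-MPP (26.3 to 57.9%) and 12.8% of CD11b+CD48+SK cells (4.83 to 25.7%). All 10 were found together in 3 BM HSC and 2 FL HSC. WT-MPP had fewer genes detected than CD11b+CD48+SK cells and more of the 10 factors. Within populations, Spearman's rho between the number of factors and that of genes detected was 0.60 in WT-MPP and 0.44 in BM HSC. It was 0.42 in FL HSC and 0.19 in CD11b+CD48+SK cells. The part of gene detection in the counts of factors was not tested. In cells with 4000 to 5000 genes detected, there was a median of 6 factors among the 24 CD11b+CD48+SK cells, 8 in the 17 WT-MPP, 8 in the 17 BM HSC and 7 in the 21 FL HSC.

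When only the heptad was counted, with Runx1 in place of the 4 factors outside it, the medians lay closer together. This count leaves out Hlf and Mecom and holds Lyl1 and Lmo2, which nearly every cell had, so its closeness is partly set by the choice of genes. Levels of heptad genes still differed in CD11b+CD48+SK cells. Against BM HSC, Gata2 was at -2.94 and Fli1 at -1.59, and against FL HSC, Erg was at 1.84. A cell of CD11b+CD48+SK, WT-MPP and FL HSC had a median of 5 of the 7 heptad genes and a BM HSC had 6. All 7 were found together in 13.9% of BM HSC (4.67 to 29.5%), 7.14% of FL HSC (1.98 to 17.3%), 12.8% of CD11b+CD48+SK cells (4.83 to 25.7%) and, similarly, 12.2% of WT-MPP (4.08 to 26.2%). Lyl1, Lmo2 and Gata2 occurred in the same cell in 85.1% of CD11b+CD48+SK cells (71.7 to 93.8%) and in 92.7% or more of each other population. Lyl1, Lmo2 and Fli1 occurred together in 86.1% of BM HSC, 80.9% of CD11b+CD48+SK cells, 80.4% of FL HSC and 78.0% of WT-MPP.

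**Figure D4:**
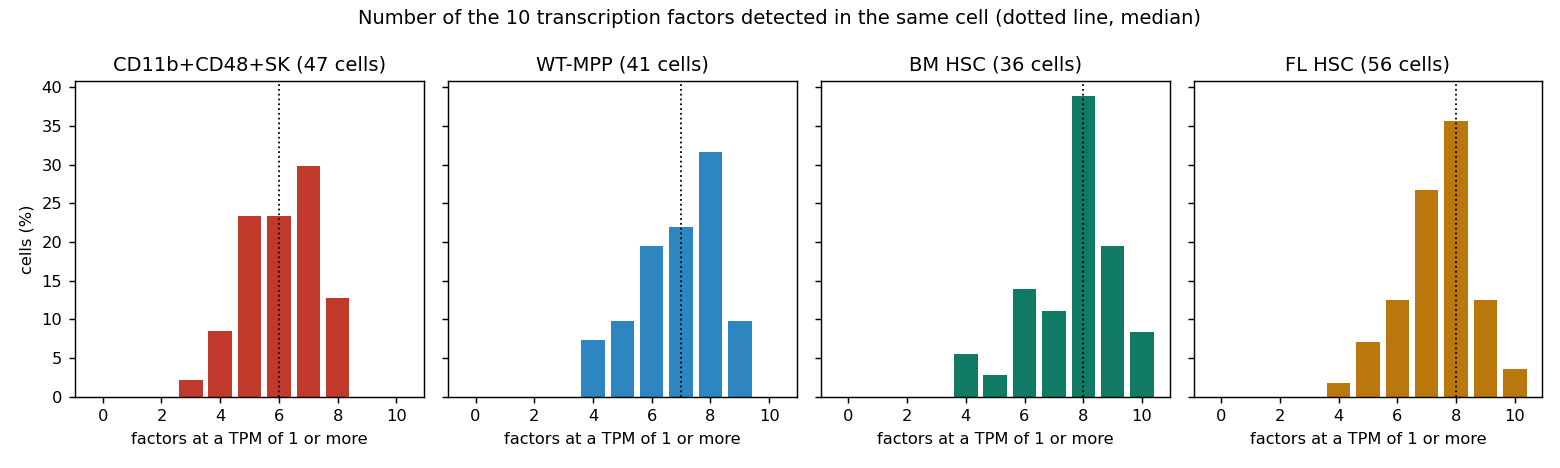
Number of the 10 transcription factors detected in the same cell (horizontal axis) and the share of the cells of each population, in percent (vertical axis from 0), with the median as a dotted line. The median is 6 in CD11b+CD48+SK cells, 7 in WT-MPP and 8 in BM HSC and FL HSC, and CD11b+CD48+SK cells have no cell above 8.

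Across the cells of 1 population, correlations between the levels of the factors were weak. Spearman's rho of the 45 pairs had a median of -0.01 over the 47 CD11b+CD48+SK cells, 0.02 over the 41 WT-MPP, 0.12 over the 36 BM HSC and 0.05 over the 56 FL HSC. All pairs of filtered genes had medians of 0.01, 0.01, 0.02 and 0.005 in the same order. A correlation of 0.3 or more in size, positive or negative, was found in 2, 4, 7 and 1 of the 45 pairs. These were 4.44, 8.89, 15.6 and 2.22% of the pairs, beside 4.82, 6.2, 8.13 and 2.96% of all pairs of filtered genes. Negative among them were Mecom and Gata2 in CD11b+CD48+SK cells (-0.35), and Tal1 and Fli1 (-0.45) and Mecom and Lmo2 (-0.34) in WT-MPP. The cells of a population share library chemistry and differ in the number of genes detected, and 0 of the 45 pairs reached 0.5 in any population. The highest value was 0.50 after rounding, for Gata2 and Lmo2 in BM HSC, against -0.19 in CD11b+CD48+SK cells, 0.10 in WT-MPP and -0.08 in FL HSC. Lyl1 and Lmo2 had rho between 0.19 and 0.31 in the 4 populations, Erg and Fli1 between 0.06 and 0.28, and Hlf and Gata2 between 0.11 and 0.26. Of the 45 pairs, 8 were above 0 and 3 below 0 in all 4 populations. With this many zeros the correlations are given as a description only.

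Hoxb5 was read in the same cells. The gate of CD11b+CD48+SK cells includes GFP, which reports the ectopic Hoxb5, so detection of Hoxb5 there is not independent of the sort. Hoxb5 was detected in 91.5% of CD11b+CD48+SK cells (79.6 to 97.6%) and 57.1% of FL HSC (43.2 to 70.3%), with 17.1% of WT-MPP and 22.2% of BM HSC. Hoxb5 without Hlf and without Mecom was found in 68.1% of CD11b+CD48+SK cells (52.9 to 80.9%), 3.57% of FL HSC (0.435 to 12.3%), 2.44% of WT-MPP (0.0617 to 12.9%) and 0 of 36 BM HSC (0 to 9.74%). In CD11b+CD48+SK cells this combination largely repeats its single shares, as Hlf or Mecom was found in only 23.4% of them. Within CD11b+CD48+SK cells, rho with Hoxb5 lay between -0.13 for Tal1 and 0.32 for Etv6.

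The genes most like each factor were taken as the 3 with the highest Spearman's rho over all 180 cells, which mixes differences between populations with those between cells. The genes most like Hlf included Cd63 (0.50) and Krt18 (0.48), and both had lower values within each population, at most 0.35. Cd63 was detected in 63.8% of CD11b+CD48+SK cells and in 100% of the cells of each other population, and Krt18 in 6.38% against 76.8% or more. Mecom was closest to Trim47 (0.50), Bex4 (0.49) and Fam213a (0.49), and Gata2 to Trim47 (0.45), Tsc22d3 (0.43) and Gpr56 (0.43). Gpr56, an adhesion receptor, also came among the 3 genes closest to Lyl1 (0.40) and to Lmo2 (0.49), beside Serinc3 and Itm2b for Lyl1 and H3f3b (0.54) and Ddx5 for Lmo2. Erg was closest to Plek (0.40), a platelet and leukocyte signalling protein, Rabgap1l and Med1. The highest values for Tal1 (Cyb5rl, 0.32), Fli1 (Tcf15, 0.32) and Nfix (Rom1, 0.32) were weak, followed by P2rx1 and Khk for Tal1, Csgalnact1 and Naa25 for Fli1 and Ap3s2 and Aldh1a1 for Nfix. For Etv6, 2 of the 3 were entries named Mir5121 and Mir686 and the other was Nr2c2 (0.31).

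Genes that work with the 10 factors were read from 3 lists. The first held 13 partners of the Tal1, Lmo2 and Gata2 complex, all listed in the table, of which 12 passed the filter. Against WT-MPP, 1 was higher by 1 or more in CD11b+CD48+SK cells and 1 lower, beside 19% and 5.01% of all filtered genes, with a median of -0.04 against 0.21. Ssbp2, which stabilises the LIM-domain binding protein Ldb1, was at a mean log2(TPM+1) of 5.41 against 4.31 in WT-MPP, and its relative Ssbp3 at 1.02 against 2.81. Ldb1 itself lay between 3.55 in CD11b+CD48+SK cells and 4.25 in WT-MPP, and Runx1 between 3.57 and 4.26. Against BM HSC 0 of the 12 were higher and 4 lower, beside 13.4% and 11.8% of all filtered genes, and against FL HSC 0 were higher and 4 lower, beside 4.02% and 20.9%. The medians were -0.45 and -0.76, against -0.001 and -0.32 over all genes. Tcf3, an E-protein that pairs with Tal1 and Lyl1, was highest in FL HSC, at 5.58 against 3.50 in CD11b+CD48+SK cells. Id1 and Id3, which block E-proteins, were each found in 0 of 47 CD11b+CD48+SK cells (0 to 7.55%). WT-MPP were close to them, with Id1 in 4.88% and Id3 in 0 of 41 cells (0 to 8.60%). Id1 was detected in 27.8% of BM HSC and 58.9% of FL HSC, and Id3 in 26.8% of FL HSC and 2.78% of BM HSC.

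The second list held 17 relatives of the 10 factors, of which 15 were listed and passed the filter. Against WT-MPP, 1 was higher by 1 or more in CD11b+CD48+SK cells (Lmo1) and 3 lower (Gata3, Nfia and Nfic), beside 19% and 5.01% of all filtered genes, with a median of -0.04. Prdm16, a relative of Mecom that also maintains HSC, was found in 0 of 47 CD11b+CD48+SK cells (0 to 7.55%), and in 42.9% of FL HSC, 33.3% of BM HSC and 24.4% of WT-MPP. Nfia, a relative of Nfix, was detected in 61.0% of WT-MPP and 55.6% of BM HSC but 8.51% of CD11b+CD48+SK cells and 1.79% of FL HSC. Lmo1, a relative of Lmo2, had its highest share in FL HSC, 53.6%, with 0 of 41 WT-MPP (0 to 8.60%). Gata3 was detected in 6.38% of CD11b+CD48+SK cells and 30.4 to 47.2% of the other cells. Among the ETS relatives, Elf1 was higher in CD11b+CD48+SK cells than in FL HSC, at 5.20 against 3.92, and Ets2 lower than in BM HSC. Against BM HSC, 0 of the 15 were higher and 4 lower, beside 13.4% and 11.8% of all filtered genes, with a median of -0.11. Against FL HSC 1 was higher and 2 lower, beside 4.02% and 20.9%, with a median of -0.18 where that of all genes was -0.32.

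Among 18 other regulators of stem cells, 17 were listed and 16 passed the filter. In CD11b+CD48+SK cells, 1 was higher than in WT-MPP, namely Hoxb5, and 5 were lower (Meis1, Gfi1b, Myb, Egr1 and Zfp36), beside 19% and 5.01% of all filtered genes, with a median of -0.20. Against BM HSC 2 were higher and 6 lower, beside 13.4% and 11.8%, with a median of -0.64 against -0.001 over all genes. Against FL HSC 1 was higher and 6 lower, beside 4.02% and 20.9%, with a median of -0.56 against -0.32. Meis1, a cofactor of Hox proteins, was detected in 51.1% of CD11b+CD48+SK cells and in 90.2 to 91.7% of the other cells, and was lower than in each of the 3 other populations. Nfe2 was detected in 100% of cells in every population. Egr1 and Nr4a1, which are also immediate early genes, were detected in 8.51% and 2.13% of CD11b+CD48+SK cells, in 70.7% and 12.2% of WT-MPP, in 23.2% each of FL HSC and in 88.9% and 52.8% of BM HSC. The difference of CD11b+CD48+SK cells from FL HSC was -0.48 for Egr1 and -1.13 for Nr4a1, and their part in the results was not tested.

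**Figure D5:**
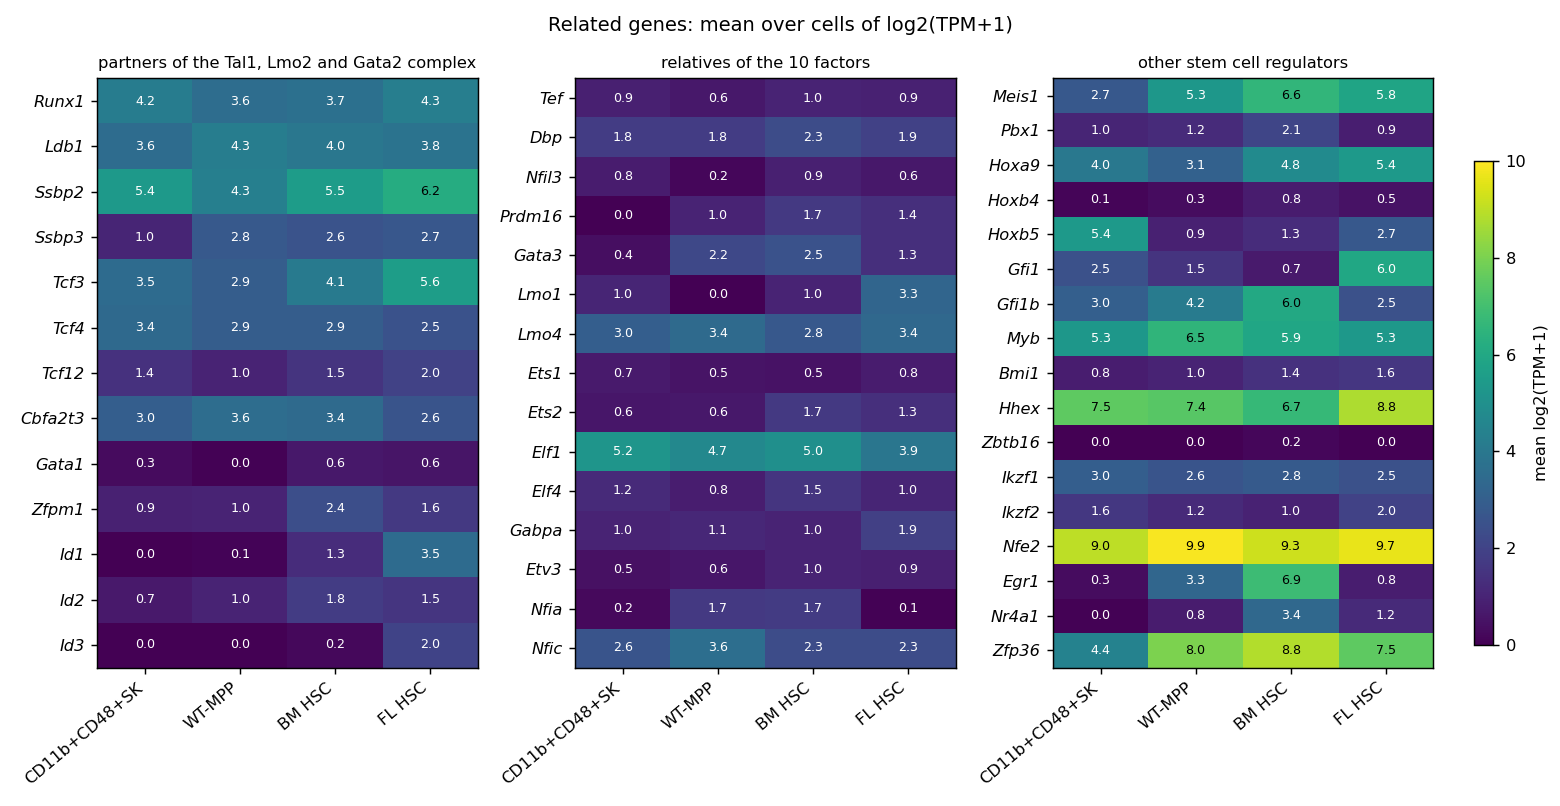
Mean over cells of log2(TPM+1) for the listed genes of the 3 lists (rows) in the 4 populations (columns), on a colour scale from 0 to 10 with the value in each field. Prdm16, Id1 and Id3 are at 0.00 in CD11b+CD48+SK cells, Meis1 is lowest there at 2.74, and Hoxb5 is highest there at 5.36.

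Markers of other cell types were counted in the same way. Against WT-MPP, 19% of all filtered genes were higher by 1 or more in CD11b+CD48+SK cells and 5.01% lower. The shares higher and lower were 13.4% and 11.8% against BM HSC, and 4.02% and 20.9% against FL HSC. Of 5 megakaryocyte markers, all were listed and 4 passed the filter. In CD11b+CD48+SK cells 1 of them, Pf4, was lower than in WT-MPP, and 3 were lower than in BM HSC and 3 than in FL HSC. Their summed level had a median of 1.03 TPM per cell (0 to 389.6 TPM) against 2.57 TPM in WT-MPP (0 to 1003 TPM), 210.3 TPM in BM HSC (0.689 to 1076 TPM) and 172 TPM in FL HSC (0 to 1833 TPM). Of 6 mast cell or basophil markers 4 were listed, and Cpa3 and Mcpt8 were higher in CD11b+CD48+SK cells in all 3 comparisons. Their summed level ran from 0 to 9248 TPM there, with a median of 144 TPM, and had a median of 0 in each other population, with highest cells at 304, 105 and 137 TPM. Cpa3 was detected in 87.2% and Ms4a2 in 10.6% of CD11b+CD48+SK cells. Gzmb was detected in 2.13% of CD11b+CD48+SK cells, 9.76% of WT-MPP and 16.7% of BM HSC, and was at 0 in every FL HSC. Ms4a2 and Gzmb differed by less than 1 in all 3 comparisons. Ms4a2 and Mcpt8 were at 0 in every WT-MPP.

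Of 6 myeloid markers 3 passed the filter, and Mpo and Ctsg were higher in CD11b+CD48+SK cells in each comparison, with detection in 91.5% and 83.0% of cells. The third, Prtn3, went the other way, with a mean log2(TPM+1) of 6.67 in CD11b+CD48+SK cells and, for comparison, 7.43 in BM HSC, 7.92 in WT-MPP and 8.56 in FL HSC. The summed level of the list had a median of 568 TPM in CD11b+CD48+SK cells (0.804 to 6778 TPM), 484 TPM in WT-MPP (2.61 to 2658 TPM), 312 TPM in BM HSC (0.651 to 1422 TPM) and 507 TPM in FL HSC (111 to 1269 TPM), and Elane and Csf1r were at 0 in every CD11b+CD48+SK cell. Of the 6 cycling markers, CD11b+CD48+SK cells had 5 higher than WT-MPP, beside 19% of all filtered genes, and 4 higher than BM HSC, beside 13.4%. Against FL HSC 0 of the cycling markers were higher, beside 4.02%, and 1 was lower (Ccnb1), beside 20.9%. Their summed level had a median of 54.4 TPM in CD11b+CD48+SK cells (0 to 2169.9 TPM), 0.805 TPM in WT-MPP (0 to 2454 TPM), 3.01 TPM in BM HSC (0 to 286 TPM) and 102.95 TPM in FL HSC (0 to 3848 TPM). Of the endothelial markers 5 passed the filter, and CD11b+CD48+SK cells had 2 lower than WT-MPP, 2 lower than BM HSC and 3 lower than FL HSC. The shares of all filtered genes lower were 5.01, 11.8 and 20.9% in this order. Of the erythroid markers 2 passed, and 0, 1 and 2 were lower in the same order. Of the B cell markers 2 passed, and 0, 1 and 1 were lower. The 1 T cell marker that passed, Lck, was higher than in WT-MPP and BM HSC. The part of these markers in the differences of Hlf, Mecom and Gata2 was not tested.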

How the data were processed

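Single cells sorted from 4 populations were sequenced as 1 library each. The deposited values are TPM, which the authors estimated per gene with StringTie (version 1.3.4) from reads aligned to mm10 with HISAT2 (version 2.1.0), per the paper's methods and the submitters' processing notes. Whether counting used strand is not given in the sources used here. Of the 181 cell columns, 1, named as a WT-MPP cell (BM-MPP), matched no sample and was not used.

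The scripts used scipy 1.17.1, pandas 2.3.3, matplotlib 3.10.9 and numpy 2.4.6 under Python 3.11.15. TPM were transformed to log2(TPM+1), with a pseudocount of 1 that understates differences of low genes, and averaged over cells. A gene was kept if any population had 10% or more of its cells at a TPM of 1 or above, the detection limit. Differences of 1 or more were counted among the 10 factors and among all kept genes. No test was made, because no animal is named for any cell. A share of 0 is given with the limit of 3 cells of the total. No cell matched to a sample was left out, and doublets were not sought, since wells held 1 sorted cell.

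The factors, the lists and the rule for named genes (the 10 factors, the 3 genes most like each, the list genes) were chosen with earlier results of these data known. The combinations of factors counted per cell were chosen after the values were seen. Gene positions are from GENCODE M21 and promoter windows from RefSeq GRCm38.p6, both the mm10 assembly. Of the genes named by this rule, 1 is not reported here, and the marker lists were computed without it. The procedure was tested on simulated data. Alternatives changed the pseudocount, averaging, scaling, filter, cells, detection limit and correlation.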

Additional observations from a re-analysis of the deposited data

How the results depend on the processing

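All 27 differences of 1 or more among the 60 (10 factors in 6 comparisons) kept their sign under the 6 alternatives that recompute a difference, and 14 also stayed at 1 or more in each. Scaling cells by the median ratio and leaving out the highest cell of each gene left the 12 counts of factors within 1.5 times. Dropping the filter cannot change these counts, since all 10 factors passed it. With a pseudocount of 10, CD11b+CD48+SK minus WT-MPP gave 2 lower in place of 4, CD11b+CD48+SK minus FL HSC 0 higher, BM HSC minus WT-MPP gave 2 higher and 0 lower, FL HSC minus BM HSC 2 lower and FL HSC minus WT-MPP 0 higher. A pseudocount of 0.1 gave 1 factor higher in CD11b+CD48+SK cells than in BM HSC, 5 lower than in FL HSC, and 2 higher in FL HSC than in WT-MPP. With the log2 of the mean TPM plus 1, BM HSC minus WT-MPP had 2 higher and 0 lower, FL HSC minus BM HSC 7 lower and FL HSC minus WT-MPP 0 higher. In cells with 4000 to 5000 genes detected, CD11b+CD48+SK minus BM HSC had 1 higher and BM HSC minus WT-MPP 2 lower. At a limit of 2, CD11b+CD48+SK cells had 1 factor lower than WT-MPP (Hlf), 3 lower than BM HSC, and 0 higher than FL HSC. BM HSC minus WT-MPP then had 1 higher and 0 lower, FL HSC minus BM HSC 0 lower, and FL HSC minus WT-MPP 0 higher and 0 lower. Of 120 alternative shares of cells with a factor, 31 fell outside the exact interval of the main share. At a detection limit of 10 TPM, the median number of factors per FL HSC was 6. The cause of these shifts was not tested. The differences of Hlf from WT-MPP, BM HSC and FL HSC ranged from -7.44 to -2.65, -5.86 to -1.82 and -5.52 to -1.32 over the alternatives. The median correlation between factors stayed within 0.1 of its value in each population under its 3 alternatives. Depth per cell is unknown, so a factor at 0 may have been missed.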
